A study of Mus musculus with 6 samples.

Results

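The receptors of the common gamma chain cytokine family were followed in the RNA of sorted OGT-sufficient and OGT-deficient Treg cells, OGT being the enzyme that attaches O-GlcNAc to nuclear and cytosolic proteins. The members were the 8 genes *Il2ra*, *Il2rb*, *Il2rg*, *Il4ra*, *Il7r*, *Il9r*, *Il15ra* and *Il21r*, found by gene symbol, and all 8 had a row among the 24420 genes of the table. All 6 samples came from female mice on the C57BL/6 background, with lymph nodes given as the tissue. The OGT-sufficient group was *Foxp3YFP-Cre/wtOgtwt/fl* (n = 3) and the OGT-deficient group was *Foxp3YFP-Cre/wtOgtfl/fl* (n = 3), so the controls also carried the YFP-Cre and 1 floxed *Ogt* allele. Cre was driven from the X-linked *Foxp3* locus on 1 of the 2 X chromosomes, and each female therefore also had Treg cells without YFP. CD4 beads and then YFP were used to isolate the cells, so CD25, the protein of *Il2ra*, was not a sort marker. The sample labels give no age, and they do not say in words that each sample was a separate mouse, so the p-values measure the spread between these samples.

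These receptors are built from a shared signalling subunit, the common gamma chain encoded by *Il2rg*, and a chain that gives each cytokine its own receptor. IL-2 binds CD25 together with the beta chain and the common gamma chain, and IL-15 uses the same beta and gamma chains with its own alpha chain. The cytoplasmic tails engage JAK1 and JAK3, and the IL-2, IL-7, IL-9 and IL-15 receptors signal largely through STAT5, the IL-4 receptor through STAT6 and the IL-21 receptor through STAT3. Treg cells are known for high CD25 and for low surface IL-7 receptor, and they depend on IL-2 made by other T cells.

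The sequences around the RefSeq starts of *Il2ra* and *Il9r* are shown because their levels did not overlap between the genotypes, and that of *Il7r* because it holds the letters of a STAT5 motif. Of the 8 receptors, 7 had an entry among the RefSeq promoters of GRCm38.p6 (250 bases before the start and 50 from it), and *Il15ra* had 2 entries. *Il2rb* had none. The windows are chr2:11642542-11642841 on the plus strand for *Il2ra*, chr15:9529827-9530126 on the minus strand for *Il7r* and chr11:32200230-32200529 on the minus strand for *Il9r*, each written 5′ to 3′ along the gene, with motif matches in capitals. The RefSeq start of *Il9r* is also the 5′ end of its GENCODE gene. That of *Il7r* lies 300 bases inside its GENCODE gene, which has a transcript that begins farther upstream, so the whole *Il7r* window is within the span given for that gene.
Il2ra: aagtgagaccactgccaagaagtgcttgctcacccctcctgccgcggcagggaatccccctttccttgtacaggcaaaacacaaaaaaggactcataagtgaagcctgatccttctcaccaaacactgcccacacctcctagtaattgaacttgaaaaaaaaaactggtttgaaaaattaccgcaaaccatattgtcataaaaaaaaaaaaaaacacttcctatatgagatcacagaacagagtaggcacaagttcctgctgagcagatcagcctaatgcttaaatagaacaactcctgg
Il7r: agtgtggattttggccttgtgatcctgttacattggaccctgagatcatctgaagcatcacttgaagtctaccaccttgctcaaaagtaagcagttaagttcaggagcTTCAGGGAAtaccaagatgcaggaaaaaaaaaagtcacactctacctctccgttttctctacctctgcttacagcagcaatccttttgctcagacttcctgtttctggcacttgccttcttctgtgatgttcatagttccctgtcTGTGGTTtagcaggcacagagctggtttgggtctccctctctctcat
Il9r: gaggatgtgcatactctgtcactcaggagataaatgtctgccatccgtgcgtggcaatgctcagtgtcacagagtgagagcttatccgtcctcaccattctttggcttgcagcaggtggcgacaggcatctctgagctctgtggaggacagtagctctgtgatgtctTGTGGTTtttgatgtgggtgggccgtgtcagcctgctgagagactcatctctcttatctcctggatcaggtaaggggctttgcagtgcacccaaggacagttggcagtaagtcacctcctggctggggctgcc

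The motifs searched on both strands were TTCNNNGAA for STAT5, GTAAACA for forkhead factors, CCGGAAG for ETS factors and TGTGGTT for Runx factors, and no match overlapped another. *Il7r* held a STAT5 match, TTCAGGGAA, at positions -142 to -134 from the start, and a Runx match at positions 3 to 9, with the start itself as position 0. The *Il9r* window held a Runx match at positions -83 to -77, and the *Il2ra* window held none of the 4 motifs. Among the receptors not printed, *Il2rg* and the first *Il15ra* promoter each held an ETS match, *Il21r* a forkhead match on the opposite strand and *Il4ra* none. For comparison, 8.3% of 32851 promoters of the same length held the STAT5 letters, 3.65% the forkhead letters, 8.86% the ETS letters and 5.27% the Runx letters. A match describes these letters only.

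Total counts were between 3375454 and 4103552 per sample, of which the ribosomal RNA gene *Rn45s* took 24.2% to 37.1%. Between 14412 and 15197 genes had a count in 5 samples, against 18346 in OGT-sufficient replicate 3, and this library is named where it bears on a receptor. *Ogt* had 562 to 957 counts in OGT-sufficient and 266 to 368 in OGT-deficient samples, without overlap (log2 fold change -1.21, SE 0.21, adjusted p = 0.191 by edgeR's quasi-likelihood test, 1.62e-05 to 0.764 over the alternative settings). Levels are in CPM, counts relative to library sizes scaled by TMM, and are given with the SD between the 3 samples of a group. All log2 fold changes are OGT-deficient over OGT-sufficient. Unless a setting is named, adjusted p-values are Benjamini-Hochberg values over the 10949 genes that passed the low-count filter, which all 8 receptors did. The limit used was 0.1. Some alternative settings tested other sets, with a p-value for 19706 genes by DESeq2 and for 19710 with no low-count filter. DESeq2's own filter on mean counts leaves genes out of its adjustment, so its adjusted p-values cover fewer genes than 19706. Leaving out a sample also changed the set, so adjusted p-values of different settings are not all over the same genes.

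The receptor chains for IL-2 were the most abundant of the family and were all higher on average in OGT-deficient cells, although none passed the adjusted limit. *Il2ra*, which encodes CD25 (chr2:11642807-11693193, plus strand), was counted 1830, 2264 and 1247 times in OGT-sufficient replicates 1 to 3. In OGT-deficient replicates 1 to 3 the counts were 2523, 2480 and 2485. Every OGT-deficient sample lay above every OGT-sufficient one, and the 3 deficient samples were close together while the sufficient ones were spread, with a coefficient of variation of 2.12% against 29.7%. The mean level was 476 ± 141 CPM against 643 ± 13.6 CPM (SD, n = 3 each). By edgeR's quasi-likelihood test the log2 fold change was 0.44 (SE 0.20, 95% interval -0.02 to 0.89, adjusted p = 0.704). The low sample was OGT-sufficient replicate 3, at 328 CPM, and without it the log2 fold change was 0.24 (adjusted p = 0.794). Without OGT-sufficient replicate 2 it was 0.69 (adjusted p = 0.552), with an unadjusted p under 0.05, as in 4 of the 16 alternative settings. Its adjusted p ranged from 0.294 to 0.9998 over them.

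*Il2rb*, the beta chain shared by the IL-2 and IL-15 receptors (chr15:78479256-78495271, minus strand), differed by more than *Il2ra*. It had 1249, 1629 and 881 counts in OGT-sufficient replicates 1 to 3 and 2184, 1918 and 2155 counts in OGT-deficient replicates 1 to 3. As for *Il2ra*, the groups did not overlap and OGT-sufficient replicate 3 was the lowest sample. The mean level was 335 ± 103 CPM (SD, n = 3) against 538 ± 45.5 CPM (SD, n = 3), a fold of 1.61 with a 95% interval of 1.16 to 2.23. The log2 fold change was 0.68 (SE 0.21, adjusted p = 0.531) by edgeR's quasi-likelihood test. Its unadjusted p was under 0.05 there and in all 16 alternative settings, and its log2 fold change ranged from 0.49 without OGT-sufficient replicate 3 to 0.96 without OGT-sufficient replicate 2. The adjusted p ranged from 0.0145 with no low-count filter to 0.997, and was under 0.1 with no low-count filter alone.

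*Il2rg*, the common gamma chain itself (chrX:101264378-101268255, minus strand), lies 371.8 kb from *Ogt* on the X chromosome. Its counts were 1093, 1053 and 955 in OGT-sufficient and 1517, 1402 and 997 in OGT-deficient replicates 1 to 3. The groups overlapped, because OGT-deficient replicate 3 lay below 2 of the OGT-sufficient samples. Its level was 276 ± 21.5 CPM (SD, n = 3) against 336 ± 67.1 CPM (SD, n = 3), with a log2 fold change of 0.28 (SE 0.16, 95% interval -0.07 to 0.64, adjusted p = 0.754). Without OGT-deficient replicate 3 the log2 fold change was 0.47 (adjusted p = 0.622, the lowest over its alternative settings), with an unadjusted p under 0.05, and without OGT-deficient replicate 1 it was 0.16.

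**Figure D1:**
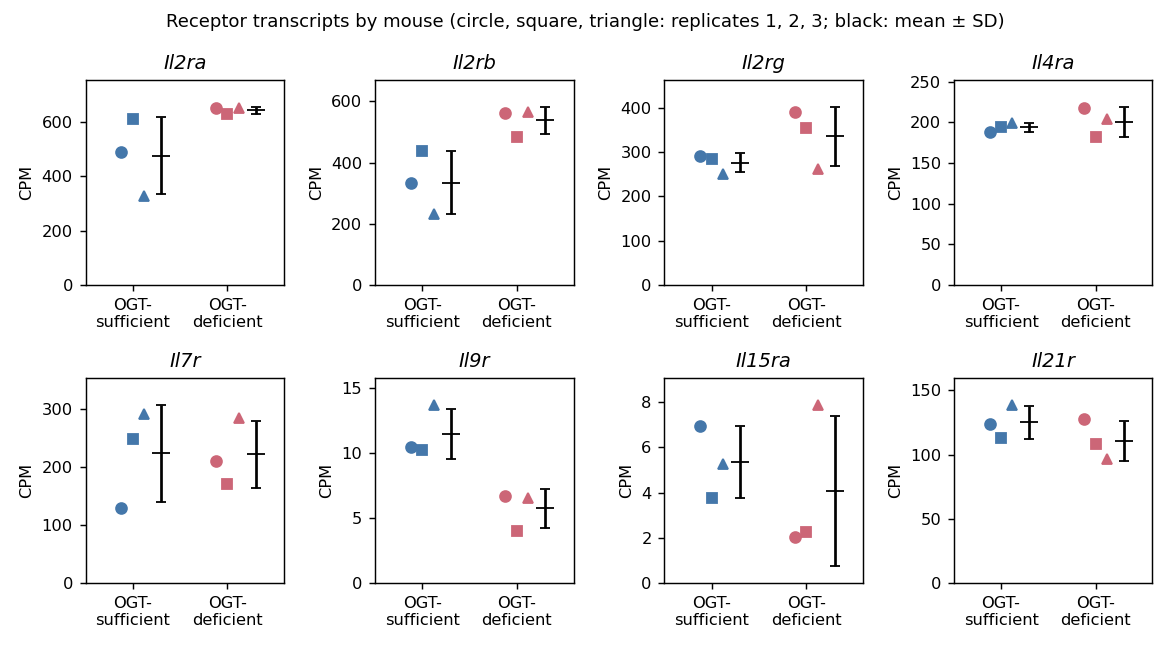
Level of each receptor in CPM (y axis, starting at 0, with its own scale in each panel) in the 3 OGT-sufficient (blue) and 3 OGT-deficient (red) samples, where black marks give the mean ± SD. The groups do not overlap for *Il2ra*, *Il2rb* and *Il9r*, and they overlap for the other 5 receptors.

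*Il7r*, the alpha chain of the IL-7 receptor (chr15:9505788-9530176, minus strand), had nearly equal means and a wide spread. The counts were 487, 920 and 1107 in OGT-sufficient and 818, 673 and 1085 in OGT-deficient replicates 1 to 3. Both groups thus covered much of the same range, and the lowest and the highest sample were both OGT-sufficient. The level was 223 ± 83.4 CPM (SD, n = 3) against 222 ± 57.8 CPM (SD, n = 3), and the log2 fold change was -0.01 (SE 0.29, adjusted p = 0.997). Its 95% interval, from -0.66 to 0.64, covers folds from 0.634 to 1.56. OGT-sufficient replicate 3 was the highest sample, at 291 CPM, and without it the log2 fold change was 0.24. Without OGT-sufficient replicate 1, the lowest sample, it was -0.24.

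*Il4ra*, the IL-4 receptor alpha chain (chr7:125552120-125579474, plus strand), had the smallest coefficient of variation of the 8 in OGT-sufficient samples, 2.74%, and one of 9.17% in OGT-deficient samples. It had 706, 719 and 757 counts in OGT-sufficient and 845, 717 and 777 counts in OGT-deficient replicates 1 to 3. All OGT-sufficient values lay inside the range of the OGT-deficient ones on the CPM scale. The level was 194 ± 5.32 CPM (SD, n = 3) against 201 ± 18.4 CPM (SD, n = 3), with a log2 fold change of 0.05 (SE 0.11, 95% interval -0.20 to 0.30, adjusted p = 0.929).

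*Il21r*, the IL-21 receptor (chr7:125603429-125633570, plus strand), lies 24.0 kb from *Il4ra* on chromosome 7. Its counts were 464, 418 and 527 in OGT-sufficient and 495, 427 and 368 in OGT-deficient replicates 1 to 3. The groups overlapped, with the highest level in OGT-sufficient replicate 3 and the lowest in OGT-deficient replicate 3. The level was 125 ± 13.1 CPM (SD, n = 3) against 111 ± 15.8 CPM (SD, n = 3), and the log2 fold change of -0.18 (SE 0.14, 95% interval -0.49 to 0.14) had an adjusted p of 0.818. With 1 sample left out it ranged from -0.29 without OGT-deficient replicate 1 to -0.051 without OGT-deficient replicate 3. It was -0.085 without OGT-sufficient replicate 3. Over all alternative settings the lowest value was -0.42.

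*Il9r*, the IL-9 receptor (chr11:32187541-32200279, minus strand), was scarce and was the receptor with the lowest p. It had 39, 38 and 52 counts in OGT-sufficient and 26, 16 and 25 counts in OGT-deficient replicates 1 to 3. Each OGT-deficient sample lay below each OGT-sufficient sample. The level was 11.4 ± 1.94 CPM (SD, n = 3) against 5.77 ± 1.49 CPM (SD, n = 3), a fold of 0.504. The log2 fold change was -0.99 (SE 0.27, 95% interval -1.60 to -0.37, adjusted p = 0.460) by edgeR's quasi-likelihood test. Its unadjusted p was under 0.05 there and in all 16 alternative settings, where the log2 fold change ranged from -1.22 to -0.75 and the adjusted p from 0.138 to 0.997. OGT-sufficient replicate 3 was the highest sample, at 13.7 CPM, and without it the log2 fold change was -0.83.

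*Il15ra*, the IL-15 receptor alpha chain (chr2:11705290-11734317, plus strand), lies 12.1 kb from *Il2ra* on the same strand and was the lowest member by counts. It had 26, 14 and 20 counts in OGT-sufficient and 8, 9 and 30 counts in OGT-deficient replicates 1 to 3. OGT-deficient replicate 3 held the highest value of all samples and the other OGT-deficient samples the lowest. The level was 5.33 ± 1.59 CPM (SD, n = 3) against 4.07 ± 3.29 CPM (SD, n = 3), with a log2 fold change of -0.39 (SE 0.52, 95% interval -1.57 to 0.79, adjusted p = 0.900). Without OGT-deficient replicate 3 the log2 fold change was -1.25 (adjusted p = 0.734, the lowest over its alternative settings). It was -0.077 without OGT-deficient replicate 1, -0.073 without OGT-deficient replicate 2 and -0.12 without OGT-sufficient replicate 1, so the value depended on single samples of both groups. In the annotation, *Il2ra*, *Il2rg* and *Il4ra* each overlap another gene model, and how the counting treated shared reads and strand was not stated.

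None of the 8 receptors passed an adjusted p of 0.1 by edgeR's quasi-likelihood test, by its exact test or by DESeq2, where 3 of the 10949 genes tested (0.0274%) did by the first. At an unadjusted p under 0.05, 2 of the 8 differed, against 7.1% of all genes tested. By DESeq2 it was 3, against 2.55% of 19706 genes, a larger set that includes genes removed by the low-count filter. That share is therefore not on the same footing as the others. By the exact test it was 2, against 6.38% of the 10949 genes. *Il2rb* was the 1 higher receptor, where 3.09% of all genes were called higher, and *Il9r* the 1 lower receptor, where 4.01% were called lower. For 3 receptors the samples of the genotypes did not overlap, against 13.2% of all genes tested. Their log2 fold changes were positive for 4 and negative for 4, with a median of 0.02, beside -0.02 over all genes tested.

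**Figure D2:**
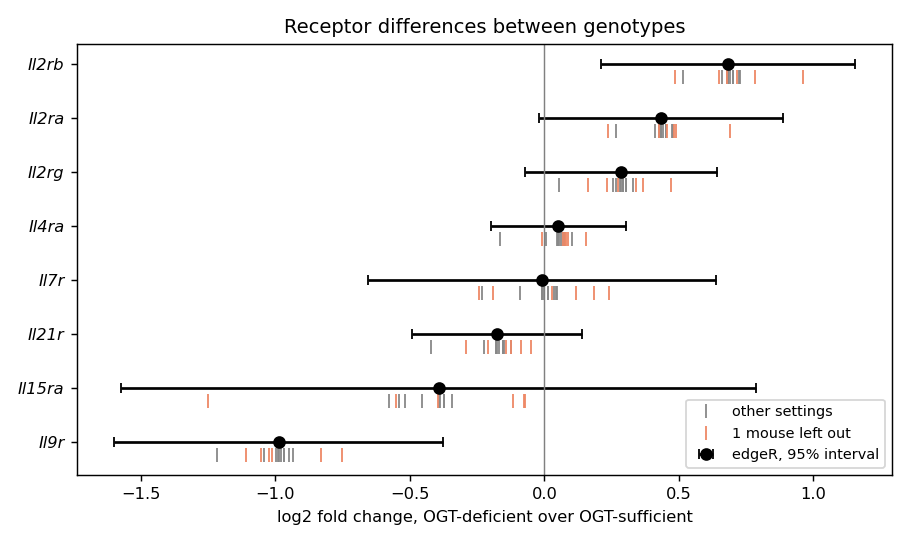
The log2 fold change of each receptor, OGT-deficient over OGT-sufficient (x axis), from edgeR with its 95% interval (black), and below each the values in the alternative settings (grey) and with 1 sample left out (orange). *Il2rb* and *Il9r* have intervals that leave out 0, and the values of *Il7r* lie on both sides of 0.

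To compare the receptors with each other, CPM was divided by the length of the union of each gene's annotated exons. In OGT-sufficient cells *Il2rg* was the highest, at 116 ± 8.99 CPM per kb (SD, n = 3), followed by *Il2ra* at 83.3 ± 24.7 and *Il2rb* at 78.1 ± 24.1. *Il7r* came next at 47.9 ± 17.9 CPM per kb, then *Il21r* at 37.6 ± 3.94 and *Il4ra* at 32.3 ± 0.887. *Il9r* at 2.31 ± 0.393 and *Il15ra* at 1.198 ± 0.357 CPM per kb were far below the rest. The ranges of neighbours in this order overlapped from *Il2rg* down to *Il21r*. Such ranges do not compare 2 genes within the same library. Within each library, *Il2rg* stood above *Il2ra* and *Il2ra* above *Il2rb* in 3 of 3 samples, and *Il2rb* above *Il7r* and *Il7r* above *Il21r* in 2 of 3. The ranges did not overlap between *Il21r* and *Il4ra*, *Il4ra* and *Il9r*, or *Il9r* and *Il15ra*.

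In OGT-deficient cells the order by CPM per kb began with *Il2rg* at 141 ± 28.1 (SD, n = 3), *Il2rb* at 125 ± 10.6 and *Il2ra* at 113 ± 2.39, which overlapped in turn. *Il7r* at 47.6 ± 12.4 CPM per kb lay below all of their samples. *Il4ra* at 33.5 ± 3.07 and *Il21r* at 33.3 ± 4.75 overlapped, and *Il9r* at 1.17 ± 0.302 and *Il15ra* at 0.915 ± 0.739 overlapped at the bottom. *Il2rb* thus stood above *Il2ra* in OGT-deficient cells and below it in OGT-sufficient cells, in 3 of 3 samples each, with overlapping ranges in both groups. With the longest transcript as the length instead, *Il2ra* stood above *Il2rb*, *Il21r* above *Il4ra* and *Il15ra* above *Il9r* in OGT-deficient cells, so these 3 places depend on the length used.

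**Figure D3:**
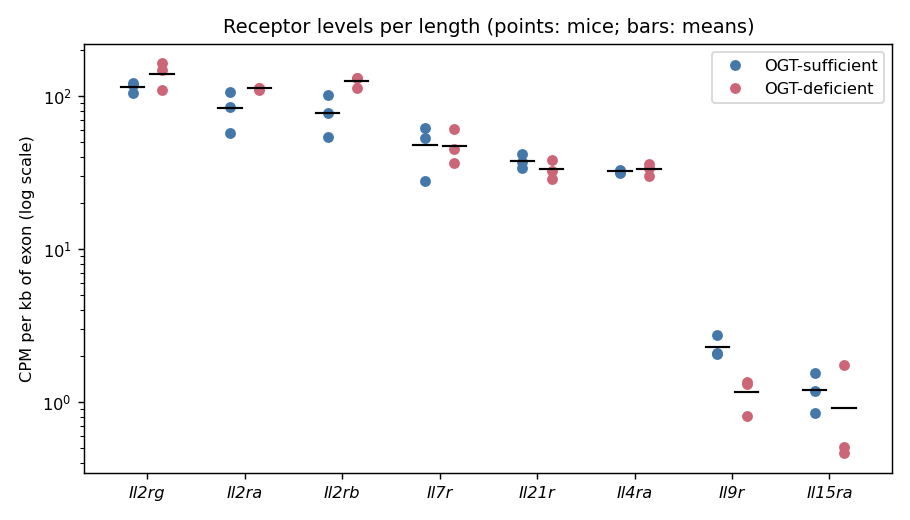
Receptor level in CPM per kb of exon (y axis, log scale) in the OGT-sufficient (blue) and OGT-deficient (red) samples, with bars at the means. The 3 IL-2 receptor chains are at the top, *Il7r*, *Il21r* and *Il4ra* in the middle, and *Il9r* and *Il15ra* more than 10 times lower.

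The 8 receptors together had 1575, 1901 and 1460 CPM in OGT-sufficient and 2171, 1933 and 2076 CPM in OGT-deficient replicates 1 to 3. These sums did not overlap, and OGT-sufficient replicate 2 and OGT-deficient replicate 2 were near each other. The 3 IL-2 receptor chains took 70.8%, 70.1% and 55.6% of the family's counts in the OGT-sufficient and 74.0%, 75.9% and 71.2% in the OGT-deficient samples. The mean share was 65.5 ± 8.58% (SD, n = 3) against 73.7 ± 2.38% (SD, n = 3), a difference of 8.18 percentage points (two-sided exact permutation test, p = 0.1, the smallest that 3 samples against 3 can give). Without OGT-sufficient replicate 3 the OGT-sufficient mean was 70.4% and the difference 3.22 points. Per kb the shares were 69.1 ± 7.47% and 76.5 ± 2.57% (SD, n = 3 each), with an exact p of 0.2.

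Ratios between receptors within a sample do not depend on how libraries are scaled, and 8 pairs were compared. The count ratio of the beta to the alpha chain of the IL-2 receptor, *Il2rb* to *Il2ra*, was 0.683, 0.720 and 0.706 in OGT-sufficient and 0.866, 0.773 and 0.867 in OGT-deficient replicates 1 to 3. The ranges did not overlap, and OGT-sufficient replicate 3 lay between its group's other samples here although it was low for both genes. The difference was 0.25 on the log2 scale, beside SDs of 0.04 and 0.09. Its exact permutation p was 0.1, which is the lowest this design allows, and 0.4 when adjusted over the 8 pairs. The ratio of *Il21r* to *Il2rg* was 0.425, 0.397 and 0.552 in OGT-sufficient and 0.326, 0.305 and 0.369 in OGT-deficient samples. This pair also did not overlap, with a log2 difference of -0.45, an exact permutation p of 0.1 and an adjusted p of 0.4.

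The other 6 ratios overlapped between the genotypes. *Il2ra* to *Il2rg* differed by 0.21 on the log2 scale, *Il2rb* to *Il2rg* by 0.46, *Il4ra* to *Il2rg* by -0.22 and *Il7r* to *Il2rg* by -0.23, with adjusted exact p-values between 0.48 and 0.9. With 1 sample left out, *Il2ra* to *Il2rg* ranged from 0.034, without replicate 3 of either group, to 0.39 without OGT-sufficient replicate 2. *Il2rb* to *Il2rg* ranged from 0.25 without OGT-deficient replicate 3 to 0.66, and was 0.29 without OGT-sufficient replicate 3. *Il4ra* to *Il2rg* ranged from -0.097 without OGT-deficient replicate 2 to -0.40 without OGT-deficient replicate 3, and was -0.13 without OGT-sufficient replicate 3. The ratio of *Il7r* to *Il2ra*, which sets the chain for IL-7 against the chain for IL-2, was 0.266, 0.406 and 0.888 in OGT-sufficient and 0.324, 0.271 and 0.437 in OGT-deficient samples (log2 difference -0.44, adjusted exact p = 0.8). Its spread came mainly from OGT-sufficient replicate 3, without which the difference was 0.037. *Il15ra* to *Il2rb* differed by -1.36 on the log2 scale (adjusted exact p = 0.48), on the few counts of *Il15ra*.

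**Figure D4:**
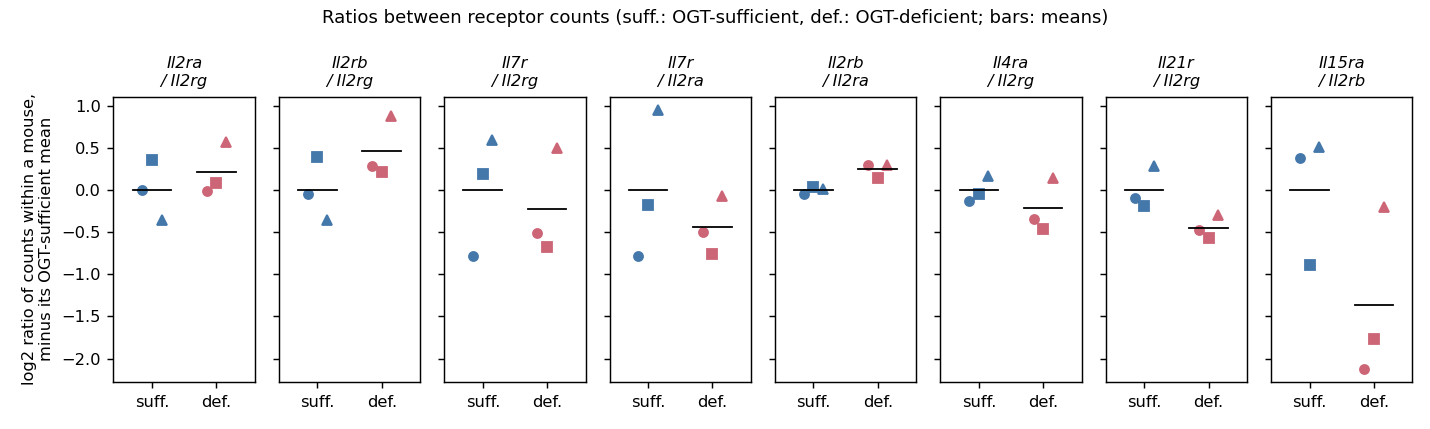
Log2 ratio of counts between receptors within each sample, minus the OGT-sufficient mean of that ratio (y axis, the same in all panels), for 8 pairs, with circles, squares and triangles for replicates 1, 2 and 3 and bars at the means. The genotypes separate for *Il2rb*/*Il2ra* and *Il21r*/*Il2rg* and overlap in the other 6 panels.

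Across the 6 samples, *Il2ra* and *Il2rb* varied together (Pearson's r = 0.97 of log2 CPM), and *Il9r* ran opposite to both (r = -0.75 and -0.78). *Il15ra* ran opposite to *Il2rg* (r = -0.85). These values describe 6 samples that share their genotypes and library scaling. Among 6076 genes with a mean of at least 20 CPM, the patterns most like *Il2ra* were those of *Cdc23*, *Dnajc15* and *Fermt3* (r = 0.997, 0.993 and 0.990). The closest to *Il2rb* were *Pim1*, *Zdhhc7* and *Il6ra* (r = 0.992, 0.990 and 0.989), and the closest to *Il2rg* were *Skap1*, *Adar* and *Kcnab2* (r = 0.993, 0.993 and 0.992).

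Of the 6 cytokines that bind these receptors, *Il15* alone passed the low-count filter, with 4 to 13 counts in OGT-sufficient and 7 to 19 in OGT-deficient samples (log2 fold change 0.49, SE 0.52, adjusted p = 0.871). *Il9* had no count in any sample, which allows up to 0.759 to 0.808 CPM per library at 3 counts, and *Il2*, *Il4*, *Il7* and *Il21* had at most 3 counts in a sample. Of the partner chains outside the family, *Crlf2*, which pairs with the IL-7 receptor alpha chain for TSLP, had a log2 fold change of -0.25 (SE 0.23), and *Il13ra1*, which pairs with the IL-4 receptor alpha chain, had 0.28 (SE 0.46). The *Il13ra1* counts were 48, 42 and 18 in OGT-sufficient and 19, 55 and 62 in OGT-deficient replicates 1 to 3. They were low and high in the same libraries as the macrophage markers described below. *Il15* also had its highest count, 19, in OGT-deficient replicate 3, where those markers were highest. Whether these transcripts came from Treg cells was not tested. *Il13ra2* had no count.

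Among the 7 genes of the JAKs and STATs that these receptors use, none had an unadjusted p under 0.05, and the median log2 fold change was 0.09. *Jak3*, the kinase bound to the common gamma chain, was at 72.2 ± 8.31 CPM against 62.0 ± 6.73 CPM (SD, n = 3 each), with a log2 fold change of -0.22 (SE 0.14). *Stat5b* had a log2 fold change of 0.15 (SE 0.12) and *Stat5a* one of 0.19 (SE 0.16), with adjusted p-values of 0.819 and 0.837. Of 7 adaptor genes 1 was higher at an unadjusted p under 0.05, *Pik3r1*, a regulatory subunit of PI 3-kinase, at 438 ± 37.0 CPM against 562 ± 77.5 CPM (SD, n = 3 each, adjusted p = 0.635 by edgeR). Of 9 regulators of receptor transcription none had a p under 0.05. *Foxo1*, known to activate *Il7r*, had a log2 fold change of 0.27 (SE 0.14), and *Nfatc1*, a factor activated by calcium signals, one of -0.18 (SE 0.11).

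Of the 12 genes listed as IL-2 and STAT5 targets, 9 had a positive log2 fold change. At the level of single genes, 6 of 12 were higher in OGT-deficient cells at an unadjusted p under 0.05 and none lower, where 3.09% and 4.01% of all genes were. The paper reports the other direction, with lower expression of many STAT5 targets in OGT-deficient Treg cells. Its case also rests on the response of mice to IL-2 complexes and on STAT5 mutants expressed in Treg cells, which these RNA values do not address. The 12 genes were listed with earlier results of these data known and were not matched to the paper's set. They therefore do not speak for STAT5 targets in general. The median log2 fold change of the 12 was 0.33, beside -0.02 over all genes tested, and none passed an adjusted p of 0.1 by edgeR's quasi-likelihood test. *Socs2*, an inhibitor of cytokine receptor signalling, was at 14.8 ± 3.46 CPM in OGT-sufficient and 28.8 ± 0.288 CPM in OGT-deficient cells (SD, n = 3 each), with 67, 57 and 42 counts against 111, 115 and 109. Its log2 fold change was 0.96 (SE 0.19, adjusted p = 0.224). It passed 0.1 by DESeq2 (adjusted p = 0.098), by the exact test (0.00837) and with no low-count filter (0.00911). *Cish*, a STAT5-induced inhibitor of the same pathway, was at 65.6 ± 18.1 CPM against 94.1 ± 2.97 CPM (SD, n = 3 each), or 0.52 on the log2 scale (SE 0.19, adjusted p = 0.627). Like *Il2ra* and *Il2rb*, it was lowest in OGT-sufficient replicate 3. So were *Socs2*, *Pim1*, *Myc*, *Socs1*, *Ccnd2* and *Foxp3*, while *Bcl2* and *Mcl1* were lowest in OGT-sufficient replicate 1.

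*Myc*, *Bcl2*, *Pim1* and *Mcl1*, which act in growth and survival, were the other 4 of the 6 higher at a p under 0.05. Their log2 fold changes were 0.41, 0.36, 0.36 and 0.30, with adjusted p-values between 0.559 and 0.577. *Socs1* had a log2 fold change of 0.45 with a wide SE of 0.32, *Foxp3* one of 0.20 (SE 0.17) and *Pim2* one of -0.35 (SE 0.26). Without OGT-sufficient replicate 3, again 6 of the 12 were higher at a p under 0.05 and the median was 0.23. The count depended on scaling: it was 3 with library size only, where 1.92% of all genes were called higher, and 1, where 0.531% were, when the counts of the T-cell genes *Cd3d*, *Cd3e*, *Cd3g* and *Cd4* served as the library size, a scaling that moved the median of all genes to -0.23. Among 7 feedback genes, 4 of them outside the target list, *Socs2* and *Cish* were the 2 with a p under 0.05, and *Socs3* had a log2 fold change of 0.39 (SE 0.18, adjusted p = 0.707).

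**Figure D5:**
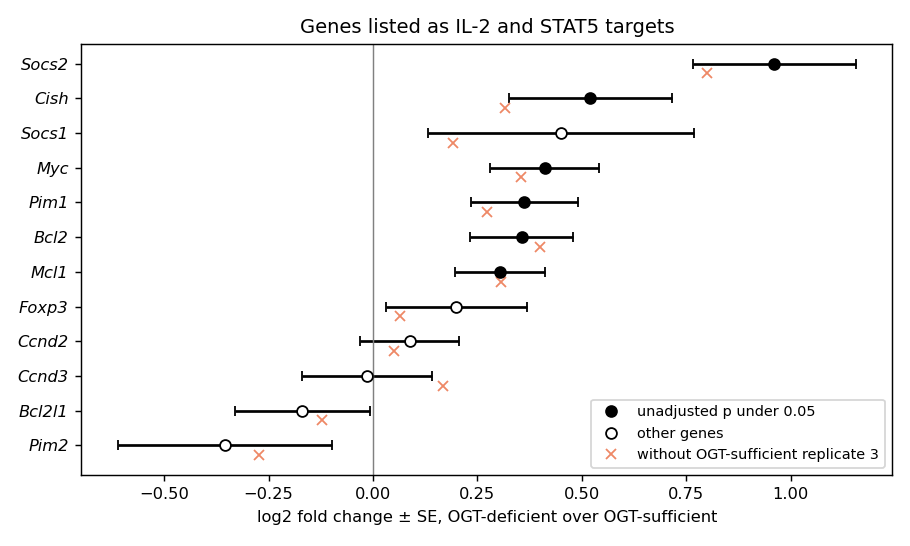
The log2 fold change ± SE (x axis) of the 12 genes listed as IL-2 and STAT5 targets, with filled points for an unadjusted p under 0.05 and crosses for the value without OGT-sufficient replicate 3. The 6 filled points lie between 0.30 and 0.96, and *Pim2*, *Bcl2l1* and *Ccnd3* lie below 0.

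Markers of other cells varied between the libraries, and in bulk RNA fewer cells of a type cannot be told apart from less RNA per cell. The 7 Treg markers summed to 1997 to 2966 CPM in OGT-sufficient samples, lowest in replicate 3, and to 2708 to 2943 CPM in OGT-deficient samples, a sum that includes *Il2ra* itself. Of the 7, 6 had positive log2 fold changes, and *Ikzf2* had one of -0.26 (SE 0.16). Only *Tnfrsf18*, which encodes GITR, was higher at an unadjusted p under 0.05, without overlap (log2 fold change 0.57). The 6 B-cell markers summed to 85.4 to 309 CPM and 86.7 to 143 CPM, and the 3 erythroid markers to 195 to 762 CPM and 198 to 436 CPM, both highest in OGT-sufficient replicate 3, where *Il2ra* and *Il2rb* were lowest and *Il9r* highest. The 10 macrophage markers, none of them at 0, summed to 3744, 3110 and 1710 CPM in OGT-sufficient and 1195, 4372 and 5240 CPM in OGT-deficient replicates 1 to 3. They exceeded the Treg marker sum in OGT-sufficient replicates 1 and 2 and OGT-deficient replicates 2 and 3, though such sums do not give shares of cells. *Il2rg* was highest in OGT-deficient replicate 1 (391 CPM) and lowest of that group in replicate 3 (261 CPM). Among OGT-sufficient samples it was highest in replicate 1, where the macrophage sum was also highest. All 6 B-cell markers had negative log2 fold changes, and *Cd79b*, a chain of the B-cell receptor, was lower at an unadjusted p under 0.05, without overlap (log2 fold change -0.71). With the macrophage level as a covariate, chosen after the data were seen, the log2 fold changes were 0.43 for *Il2ra*, 0.68 for *Il2rb*, 0.29 for *Il2rg* and -0.95 for *Il9r*.

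The 6 CD8 and NK markers summed to 32.1 to 41.1 CPM in OGT-sufficient and 19.4 to 37.4 CPM in OGT-deficient samples. Of the 4 tested, 3 had negative log2 fold changes, and *Cd8b1*, which encodes a CD8 chain, had one of 0.18 (SE 0.29). Only *Nkg7*, which encodes a cytotoxic granule protein, was lower at a p under 0.05. It was at 9.70 ± 1.74 CPM against 4.82 ± 1.37 CPM (SD, n = 3 each). Among markers of resting or conventional T cells, *Klf2*, a transcription factor of quiescent T cells, and *Ccr7*, a chemokine receptor for entry into lymph nodes, were higher at an unadjusted p under 0.05, with log2 fold changes of 0.52 and 0.31 and without overlap between the genotypes. *Lef1*, *Satb1* and *Tcf7*, transcription factors of the same list, had log2 fold changes of 0.19, 0.20 and -0.17 and did not pass that limit. The 4 effector Treg genes, which the study chose on these samples and which are therefore no independent evidence, summed to 63.4 to 82.2 CPM against 23.8 to 33.8 CPM, and all 4 were lower at a p under 0.05. The part of these differences in the receptor values was not tested. With the T-cell genes as the library size, the log2 fold changes were 0.26 for *Il2ra*, 0.51 for *Il2rb*, 0.06 for *Il2rg*, -0.17 for *Il4ra* and -1.22 for *Il9r*, against a median of -0.23 over all genes. Of these, *Il2rb*, higher, and *Il9r*, lower, again had an unadjusted p under 0.05. In this setting 0.531% of all genes were called higher and 6.19% lower.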

How the data were processed

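RNA of YFP+ Treg cells was sequenced as paired-end reads. Per the submitters' processing notes, the authors trimmed reads with Trimmomatic 0.33, checked them with FastQC and aligned them with Bowtie2 2.2.4.0 to mm10. The paper names Cuffquant for gene quantification and the notes name featureCounts, and annotation, strand and shared reads are not given in the sources used here. The authors deposited whole numbers per gene symbol, which were assumed to be counts without normalization and were used as deposited. Their own p-values, FDR, fold changes and group means in the same table were not used.

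Samples were grouped by the genotype label. The members and gene lists were chosen with earlier results of these data known. Counts were tested in R 4.3.3 with edgeR 4.0.16 (quasi-likelihood, TMM, filterByExpr with its minimum count at 10, genotype only, Benjamini-Hochberg), after a test on simulated data, and DESeq2 1.42.0, edgeR's exact test, other scalings and filters, a replicate block and leaving out each sample were alternatives. Scaling by T-cell genes, the macrophage covariate, the target count under every setting and the chains' share without each sample were added after the data were seen. Ratios were compared by exact two-sided permutation in Python 3.11.15 with scipy 1.17.1. The TMM-scaled library sizes were 3712093 to 3952583, and the median biological coefficient of variation was 0.159. Replicates differed beyond sampling noise (chi-square over its degrees of freedom 3.49 to 24.2), so each was counted once. Exon lengths and gene positions came from GENCODE M21 on GRCm38 by symbol. Named genes were the 8 receptors, *Ogt* and, per pathway list, those of lowest p in each direction, at most 3; names beyond that rule, marker genes included, were chosen after their values were seen. One marker of the resting or conventional T-cell list, and that list's sum, are not reported here.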

Additional observations from a re-analysis of the deposited data

How the results depend on the processing

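*Il2ra*, *Il2rb*, *Il2rg*, *Il9r*, *Il15ra* and *Il21r* kept the sign of their log2 fold change in every alternative that could be run, and *Il15ra* was not tested when at least 10 counts were required in every sample. *Il7r*, at -0.01 as reported, was 0.013 by DESeq2 and 0.013 with DESeq2's size factors, 0.048 with no low-count filter, 0.044 with the macrophage covariate and -0.24 to 0.24 with 1 sample left out. *Il4ra* was -0.17 with the T-cell genes as library size and -0.0089 to 0.15 with 1 sample left out. The log2 ratio of *Il7r* to *Il2rg* ranged from -0.62 to 0.071 and that of *Il7r* to *Il2ra* from -0.83 to 0.037 with 1 sample left out. With no low-count filter, 1 receptor (*Il2rb*) had an adjusted p under 0.1 and 4 an unadjusted p under 0.05, where 6.13% of all genes did. With 1 sample left out, 0 receptors passed the adjusted limit, 2 to 4 had an unadjusted p under 0.05, where 4.13% to 7.9% of all genes did, and 3 to 5 did not overlap between genotypes, where 19.7% to 24.6% of all genes did not. The highest of these counts came without OGT-deficient replicate 3. The count of IL-2 and STAT5 targets higher at a p under 0.05 was 3 with library size only, 1 with the T-cell genes as library size and 4 to 8 with 1 sample left out. The causes were not tested.

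Same-numbered samples of the genotypes did not deviate together (r = -0.27, 0.01 and -0.12), so the numbers were not taken as pairs. With a replicate block, the log2 fold change was 0.73 for *Il2rb* (adjusted p = 0.766), 0.48 for *Il2ra*, -0.997 for *Il9r* and 0.037 for *Il7r*. Under the block 2 receptors again had an unadjusted p under 0.05, and over all genes 0 passed an adjusted p of 0.1 and 679 had a p under 0.05. Across all genes tested, 338 were higher and 439 lower at a p under 0.05, against 386 and 385 with DESeq2's size factors, 210 and 434 with library size only and 58 and 676 with the T-cell genes as library size. An adjusted p of 0.1 was passed by 3 genes as reported, 40 by DESeq2, 80 by the exact test, 131 with no low-count filter and 31 with the macrophage covariate. With 8 to 52 counts in a sample, counting error limits *Il9r* and *Il15ra* more than the other receptors.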
